A study of Mus musculus with 27 samples.

Results

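Genes of the blood vessel system, 10 in all, were followed through osteoblast differentiation in mouse calvarial cells. They were listed by name and found by their Ensembl identifiers, which gave 10 of the 37991 genes in the files, and all 10 had counts. By role they fall into 5 secreted factors (Vegfa, Vegfb, Vegfc, Angpt1 and Angpt2), 3 receptors (Flt1, Kdr and Nrp1) and 2 endothelial junction and adhesion genes (Pecam1 and Cdh5). The cells came from the skull vault of C57BL/6J-Col3.6 CFP mice aged 5 to 9 days, a strain in which the Col3.6 collagen promoter drives a cyan fluorescent protein. All 9 time points share that genotype, a 4 day growth culture, the sort for fluorescent cells, which the study took as pre-osteoblasts, and a differentiation medium with ascorbic acid and beta-glycerol phosphate. RNA was taken on days 2, 4, 6, 8, 10, 12, 14, 16 and 18 of differentiation, and the comparison is between these days. The sort selects on a collagen promoter that also works in other connective tissue cells, so it does not by itself define an osteoblast.

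Each day has 3 deposited profiles, which by their names are 3 sequencing lanes with 1 barcode, although the study describes them as replicate samples. Within a day they differed by no more than sampling noise (chi-square per degree of freedom 0.999 to 1.02 across the 9 days), so they were summed and counted as 1 library, and no day is treated as having a biological replicate. The summed libraries held 22470147 to 62009115 estimated counts, with days 10 and 8 the shallowest, and 3 counts correspond to 0.0484 to 0.134 CPM, where CPM is a gene's count scaled to a library total of 1000000. The osteoblast label was checked against 6 marker genes. Col1a1, the main bone collagen, lay between 5020 and 12500 CPM, and Runx2 between 146 and 220 CPM. The late markers Ibsp and Bglap reached 84.8 and 17.0 CPM on day 18 from 0.710 and 0.118 CPM on day 2. Sp7 and Alpl dropped from 50.3 and 14.0 CPM on day 2 to 7.71 and 1.13 CPM on day 4. On day 18 they stood at 13.6 and 23.5 CPM. Markers of other cell types rose late. The summed level of 7 monocyte and macrophage markers was 19.3 to 44.8 CPM on days 2 to 6 and 345 to 1300 CPM on days 14 to 18, and 6 of the 7 rose by a line fitted over the days (median log2 change 5.98). The 5 adipocyte markers summed to 2.34 to 6.24 CPM and then to 96.3 to 192 CPM, and all 5 rose (median 11.5). Of the 6 osteoblast markers, 4 rose and 2, Sp7 and Alpl, did not pass (median 1.73). Since these are bulk libraries, fewer cells of a type and less RNA per cell cannot be told apart.

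As background, the VEGF ligands are secreted proteins that bind receptor tyrosine kinases on endothelial cells and drive the growth of blood and lymph vessels. Neuropilins are co-receptors that also bind semaphorins, and the angiopoietins bind the receptor Tek (Tie2) on endothelium, where Angpt1 stabilises vessels and Angpt2 often opposes it. In bone, osteoblast-lineage cells are a known source of VEGF-A, while Pecam1 and Cdh5 are made mainly by endothelial cells, Pecam1 by platelets and leukocytes too.

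For the comparison over days, a straight line in day was fitted to the counts of the 9 libraries, and separately a natural spline of 3 degrees of freedom, which allows a rise and a fall. A gene was called when the adjusted p of edgeR's quasi-likelihood test was under 0.05, and the change given is the fitted log2 change from day 2 to day 18. The line tested 9 of the 10 genes and called 6. Vegfb, Angpt1, Angpt2 and Cdh5 rose, Vegfa and Kdr fell, and Vegfc, Flt1 and Nrp1 did not pass. Of all 15659 genes tested, the line called 54.3% (28.3% rose and 26.1% fell), so a call is common in this course and the count of 6 is near that background. The counts given for the other gene lists are to be read beside the same shares. Pecam1 had too few counts to enter the line. The spline called 7 of the 10, the same 6 and Nrp1, beside 57.5% of 16256 genes. Without the day 2 library the line called 5 (4 rose and 1 fell) and the spline 5, Kdr being lost from both and Nrp1 from the spline, beside 46.3% and 46.1% of all genes. On days 2 to 6 against days 14 to 18, the levels of 5 of the 9 genes tested (Vegfa, Vegfb, Angpt1, Angpt2 and Cdh5) did not overlap, beside 62.4% of all genes tested. The median change over all genes tested was 0.05 on the log2 scale.

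**Figure D1:**
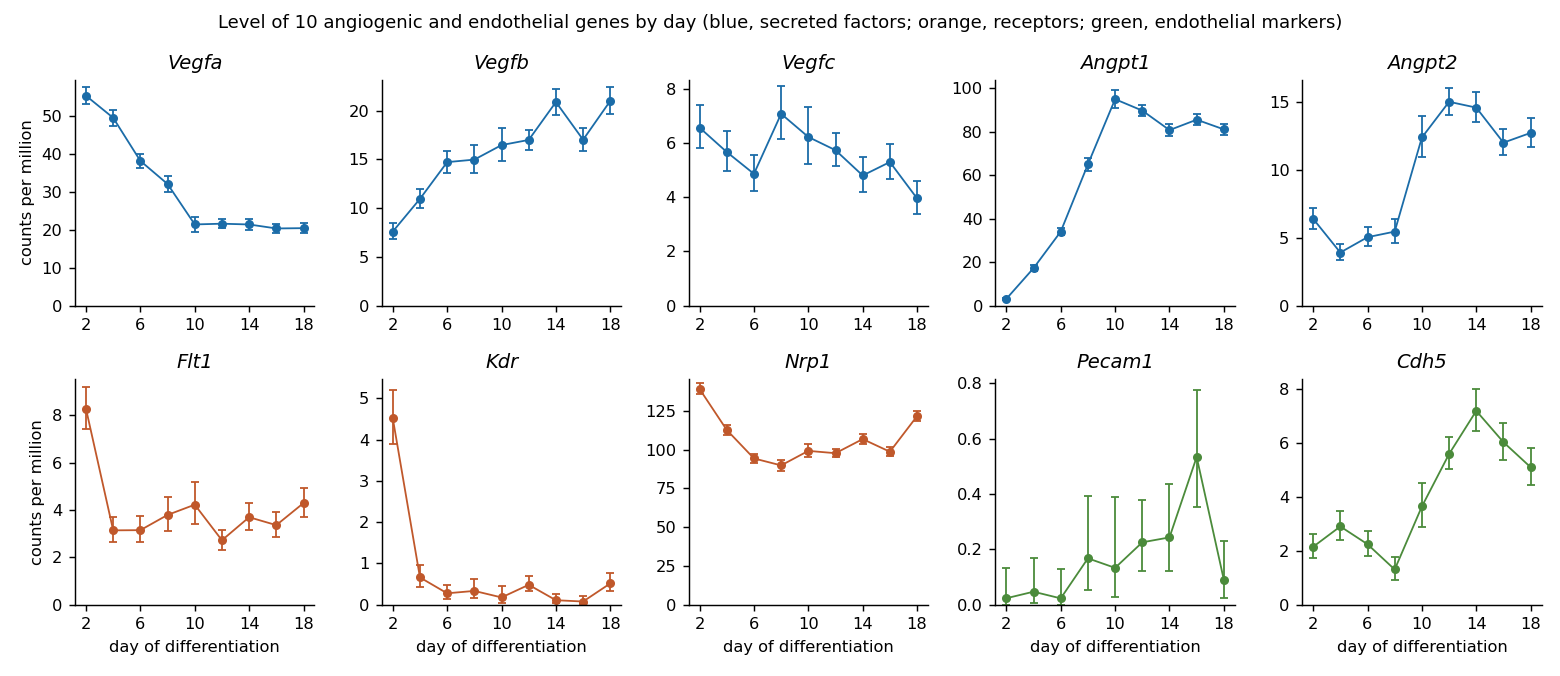
Level in CPM (y axis, from 0) on each day of differentiation (x axis) for the 10 genes, 1 summed library per day, with bars giving exact Poisson 95% intervals that cover counting error only. Vegfa runs down from 55.3 to 20.4 CPM while Vegfb and Angpt1 run up, and Kdr is high on day 2 alone.

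Among the secreted factors, Vegfa (NCBIM37 chromosome 17, 46153942 to 46169326, minus strand), the principal growth factor of blood vessels, was at 55.3, 49.5, 38.1, 32.0, 21.4, 21.5, 21.4, 20.3 and 20.4 CPM from day 2 to day 18. In CPM it stepped down on each day until day 10 and then stayed within a narrow band, and its early and late days did not overlap. In normalised TPM (the deposited abundance per length, scaled to the upper quartile of each profile) the lowest value was 24.8, on day 10, and days 14 and 18 stood at 41.8 and 38.5, while the mean transcript length by which TPM divides was 1585 bases on day 10 and 1104 on day 14. The fitted change was −1.46 ± 0.21 (SE; adjusted p = 0.000259), a 2.74-fold fall. Restricted to days 2 to 10, the change fitted from day 2 to day 10 was −1.33 (adjusted p = 0.00135).

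Vegfb (chromosome 19, 7056963 to 7062141, minus strand), a ligand of Flt1 that is linked to fat and muscle metabolism more than to vessel growth, took the opposite course. It was at 7.59, 10.9, 14.7, 15.0, 16.5, 17.0, 20.9, 17.0 and 21.0 CPM. Day 2 was the lowest and day 18 the highest, with a fitted change of 1.30 ± 0.22 (SE; adjusted p = 0.000639), and over days 2 to 10 alone it was 1.08 (adjusted p = 0.0104). Per transcript length, in normalised TPM, Vegfa was at 6.65 times the level of Vegfb on day 2 and at 1.03 times on day 18.

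The upstream sequences of these genes are shown because Vegfa is a textbook target of the hypoxia-inducible factors, which bind the core ACGTG or GCGTG. The RefSeq promoter table (GRCm38.p6) held windows for 6 of the 10 genes, Vegfa, Vegfb, Vegfc, Flt1, Kdr and Nrp1, and none for Angpt1, Angpt2, Pecam1 and Cdh5. The 250 bases before the most upstream start of each gene were searched for both cores on both strands, where they read CACGT and CACGC, and overlapping matches were counted. A further Vegfa window, 7214 bases downstream of the first, was not used. The Vegfa window, at chr17:46032378-46032627 (minus strand), held no core. Only these 250 bases were searched, so a core further upstream or within the gene would be missed. The Vegfb window, at chr19:6987652-6987901 (minus strand), held 2 cores and that of Kdr, at chr5:75978456-75978705 (minus strand), also held 2. These 3 windows follow from 5′ to 3′ with the cores in capitals.
Vegfa window: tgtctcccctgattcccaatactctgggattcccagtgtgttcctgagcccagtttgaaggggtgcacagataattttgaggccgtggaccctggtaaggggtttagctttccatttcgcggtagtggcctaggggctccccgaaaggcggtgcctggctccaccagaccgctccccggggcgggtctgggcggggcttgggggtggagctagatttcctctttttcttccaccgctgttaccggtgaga
Vegfb window: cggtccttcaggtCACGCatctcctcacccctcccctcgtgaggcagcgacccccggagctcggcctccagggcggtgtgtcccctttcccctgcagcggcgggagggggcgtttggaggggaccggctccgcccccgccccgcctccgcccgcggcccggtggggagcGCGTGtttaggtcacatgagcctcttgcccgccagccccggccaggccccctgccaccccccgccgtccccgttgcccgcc
Kdr window: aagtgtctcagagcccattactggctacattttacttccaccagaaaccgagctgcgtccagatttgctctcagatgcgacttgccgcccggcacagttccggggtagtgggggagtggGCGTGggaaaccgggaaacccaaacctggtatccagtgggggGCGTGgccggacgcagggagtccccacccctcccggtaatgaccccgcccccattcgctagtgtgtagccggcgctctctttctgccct
Flt1 and Nrp1 held 1 core each and Vegfc held none, so 4 of the 6 windows had a core, beside 38.6% of all 32851 windows in the table (16.6% with ACGTG and 28.2% with GCGTG). The letters are a description of the window, not of binding.

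Vegfc (chromosome 8, 55162886 to 55271808, plus strand), the growth factor of lymphatic vessels, had the smallest fitted change of the 5 secreted factors. Its levels were 6.58, 5.67, 4.87, 7.09, 6.23, 5.74, 4.81, 5.30 and 3.96 CPM, with early and late days overlapping. The line gave −0.35 ± 0.24 (SE; adjusted p = 0.248) and the spline an adjusted p of 0.316. When each of the 27 profiles stood as its own sample, the line passed (adjusted p = 0.0292, and 0.0366 with the replicate block), but those profiles are lanes of 9 libraries.

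The 5 VEGF family ligands can be set side by side per length. Their summed TPM was 154 on day 2 and 288 on day 18. Vegfa held 52.3% of it on day 2, 27.2% on day 8 and 13.3% on day 18, and Vegfb went from 7.87% to 13.0%. The ligand with the largest share from day 4 on was Figf (Vegfd), a lymphatic growth factor, which rose from 63.0 to 222 CPM (fitted log2 change 1.81 ± 0.22, SE, adjusted p = 0.000119) and from 33.7% to 71.9% of the sum. Vegfc held 1.45% to 3.98% and Pgf, placental growth factor, 0.34% to 2.29%.

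**Figure D2:**
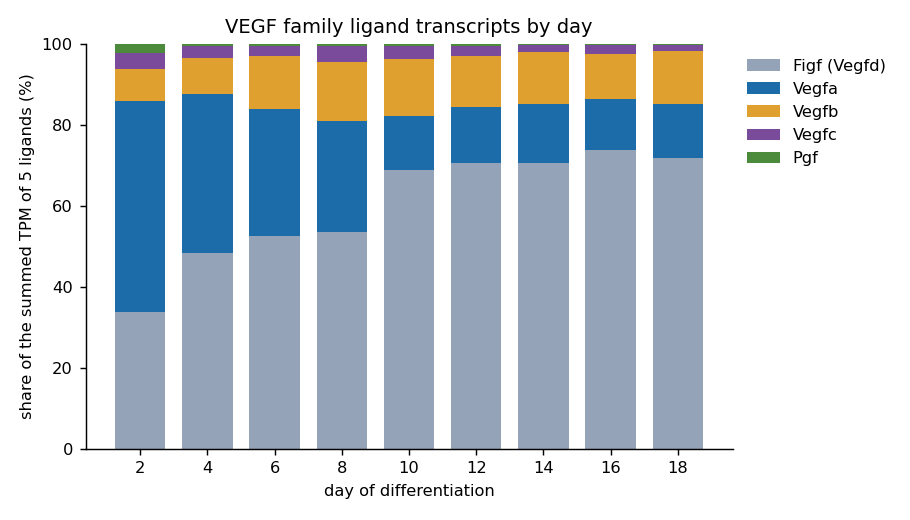
Share of the summed TPM of 5 VEGF family ligands (y axis, percent) on each day of differentiation (x axis), by ligand in colours, 1 bar per day as the mean of 3 lanes. The Vegfa share runs from 52.3% on day 2 to 13.3% on day 18 and the Figf share from 33.7% to 71.9%.

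Angpt1 (chromosome 15, 42256273 to 42508523, minus strand), the activating ligand of Tek, had the largest fitted rise of the 9 genes tested. From day 2 to day 18 it was at 3.05, 17.2, 34.0, 64.9, 94.9, 89.6, 80.7, 85.5 and 81.0 CPM. In CPM every day up to day 10 lay above the one before, and the later days formed a plateau a little under the day 10 level. In normalised TPM day 12 was the highest, at 39.0 beside 35.4 on day 10. The day 18 library held 26.5 times the CPM of the day 2 library (95% exact conditional interval 22.3 to 31.9, counting error only). The line, which fits a plateau poorly, gave 3.45 ± 1.03 (SE; adjusted p = 0.0158) and 3.18 without day 4 (adjusted p = 0.0564), and it gave 2.22 without day 2 (adjusted p = 0.0241). The spline gave an adjusted p of 1.48e-07, and over days 2 to 10 alone the line gave 4.51 (adjusted p = 0.00233). Angpt1 shares 283 exonic bases with the antisense gene Gm17473, which held at most 16.8 estimated counts on any day beside 129 to 5558 for Angpt1.

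Angpt2 (chromosome 8, 18690263 to 18741562, minus strand), the context-dependent antagonist, rose in CPM in a step between days 8 and 10. Its levels were 6.39, 3.90, 5.03, 5.44, 12.4, 15.0, 14.6, 12.0 and 12.7 CPM. Days 2 to 8 all lay at or under 6.39 CPM and days 10 to 18 all at 12.0 CPM or above. In normalised TPM days 8, 10 and 12 stood at 3.42, 5.60 and 12.3, so the larger rise there came between days 10 and 12. The line gave 1.85 ± 0.47 (SE; adjusted p = 0.00671) and the spline an adjusted p of 0.000172. Over days 2 to 10 alone it was 0.97 (adjusted p = 0.19). Angpt2 lies within the gene Mcph1 on the opposite strand but shares no exonic base with it. Per length, Angpt1 stood at 0.345 times Angpt2 on day 2, at 6.91 times on day 8 and at 3.76 times on day 18. The ratio of their counts on those days was 0.478, 11.9 and 6.37, and the mean transcript length used for Angpt2 ranged from 2391 to 3560 bases over the days.

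The other ligands of these families moved mostly upward. Of 6 such genes, 4 rose, 1 fell and 1 did not pass, beside 28.3% that rose and 26.1% that fell among all genes tested. Their median change was 2.43 beside 0.05 over all genes. Angptl1, an angiopoietin-like protein, went from 1.32 to 23.2 CPM (log2 change 5.32 ± 0.92, SE, adjusted p = 0.000826). Angpt4, the third angiopoietin, went from 0.473 to 7.51 CPM and Angptl4, a lipoprotein lipase inhibitor made by fat cells and induced by fasting, from 5.96 to 58.1 CPM (log2 changes 4.08 and 3.05). Angptl2 fell by 0.95 on the log2 scale.

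In CPM each of the 3 receptors was highest on day 2. Vegfa (55.3 CPM) and the ligand Pgf (3.17 CPM, then 0.672 to 1.14 CPM) were also highest on that day. Other receptors given below, such as Tek and Plxnd1, were higher on later days. Nrp1 (chromosome 8, 130882973 to 131029362, plus strand), a co-receptor for VEGF-A and for semaphorin 3A, had the highest level of the 3 receptors in TPM. It was at 139, 113, 94.3, 89.8, 99.2, 97.7, 107, 98.7 and 122 CPM. The ends of the course were the highest and day 8 the lowest, which a line does not describe (change −0.02 ± 0.21, SE, adjusted p = 0.954) and the spline did (adjusted p = 0.00409). Without day 2 the spline no longer passed (adjusted p = 0.0758), and the sign of the line turned with several alternatives.

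Flt1 (chromosome 5, 148373180 to 148537587, minus strand) encodes VEGF receptor 1, which binds Vegfa, Vegfb and Pgf and is also made in a soluble form. It was at 8.28 CPM on day 2 and at 3.14, 3.15, 3.80, 4.23, 2.73, 3.70, 3.36 and 4.30 CPM after that. Day 2 stood alone, at 2.63 times day 4 (95% interval 2.15 to 3.24, counting error only), and days 4 to 18 had no visible order. Neither the line (−0.51 ± 0.42, SE, adjusted p = 0.326) nor the spline (adjusted p = 0.0727) passed. The spline did pass in 6 of 18 other settings. These were DESeq2, the fits without day 4, 10 or 18, and the 27 profiles without and with the replicate block. Those profiles are lanes of 9 libraries. Without day 2 the line turned to 0.45 (adjusted p = 0.26). In normalised TPM the highest day was day 10, at 5.45, but that value rested on 1 lane. The 3 lanes of day 10 held 31, 33 and 31 counts and 1.39, 1.04 and 13.9 TPM. The software's mean transcript length for Flt1 was 4853, 6511 and 694 bases in those lanes, and TPM divides by it.

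Kdr (chromosome 5, 76328852 to 76374483, minus strand) encodes VEGF receptor 2, the main signalling receptor for Vegfa on endothelium and a defining endothelial gene. It had 191 counts on day 2 and 28, 12, 10, 4, 30, 5, 4 and 23 on the following days. In CPM that was 4.52 on day 2, 0.662 on day 4 and 0.0791 to 0.517 from day 6 on. Day 2 was 6.82 times day 4 (95% interval 4.57 to 10.5, counting error only). The line gave −3.27 ± 1.07 (SE; adjusted p = 0.0249) and the spline an adjusted p of 0.00258. Both rested on the day 2 library, since without it the line gave −0.67 (adjusted p = 0.634) and the spline an adjusted p of 0.754. Without day 16 the line also missed the threshold (−2.97, adjusted p = 0.0576), and without day 18 it was −5.34 (adjusted p = 0.00323). The osteoblast transcription factor Sp7, chosen for this comparison after its values were seen, was also high on day 2 alone, at 50.3 CPM against 3.90 to 13.6 CPM later.

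**Figure D3:**
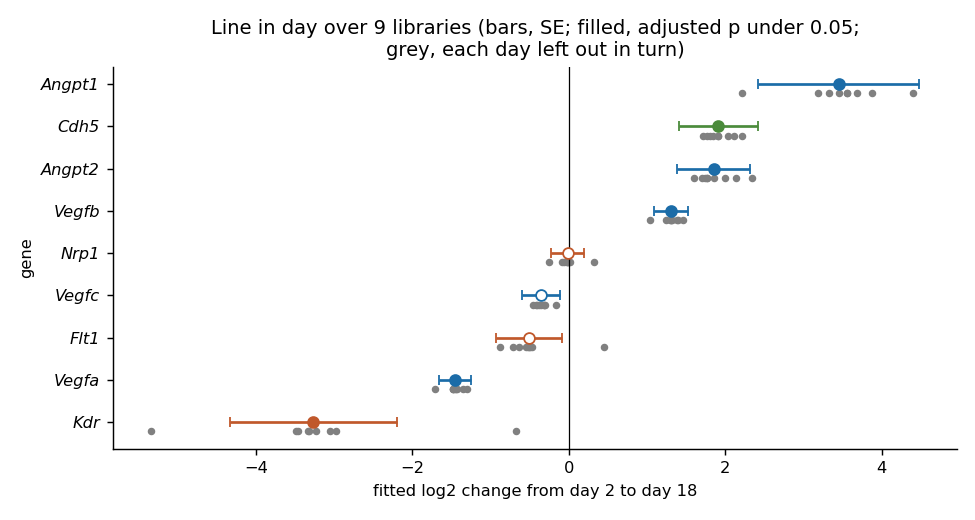
Fitted log2 change from day 2 to day 18 (x axis) for the 9 genes that entered the line (y axis), with the standard error as bars, filled points for adjusted p under 0.05 and grey points for the fit with each day left out. The grey points of Kdr run from −5.34 to −0.67, those of Vegfa from −1.71 to −1.30, and those of Flt1 and Nrp1 lie on both sides of 0.

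Of 6 other receptors, 2 rose, 2 fell, 1 did not pass and Tie1, an endothelial partner of Tek, had 0 counts in every library. The median change of the 5 tested was 0.27. Flt4, the receptor of Vegfc and Figf on lymphatic endothelium, fell from 11.5 to 0.697 CPM (log2 change −5.08 ± 0.52, SE, adjusted p = 5.24e-05). Tek, the angiopoietin receptor, was at 2.88 to 3.62 CPM on days 2 to 6 and 12.7 to 20.2 CPM from day 10 on (2.97 ± 0.75, SE, adjusted p = 0.00687). Plxnd1, a semaphorin receptor, rose from 5.56 to 58.9 CPM (3.81 on the log2 scale), and Ptprb, a phosphatase that acts on Tek, fell by 0.54. These receptors moved both ways.

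Of the 2 endothelial adhesion genes, Cdh5 (chromosome 8, 106625525 to 106668402, plus strand), which encodes the cadherin of endothelial junctions, was at 2.15, 2.91, 2.25, 1.31, 3.65, 5.60, 7.20, 6.03 and 5.11 CPM. Days 2 to 8 lay under 3 CPM and days 12 to 18 above 5 CPM. The line gave 1.91 ± 0.51 (SE; adjusted p = 0.00887) and the spline an adjusted p of 0.00107. Over days 2 to 10 alone it was 0.30 (adjusted p = 0.725). Days 12 to 18, when Cdh5 was highest, were also days of high macrophage and adipocyte markers. From day 14 to day 18 Cdh5 went down from 7.20 to 5.11 CPM. The summed macrophage markers went up from 345 to 1300 CPM and the adipocyte markers from 96.3 to 192 CPM. Any part of macrophages or adipocytes in the Cdh5 level was not tested.

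Pecam1 (chromosome 11, 106515531 to 106611942, minus strand), the adhesion molecule CD31, was close to absent. It had 1, 2, 1, 5, 3, 14, 11, 27 and 4 counts from day 2 to day 18, so 4 libraries, the 3 early ones among them, were at or under 3 counts. The highest level was 0.534 CPM on day 16 (95% interval 0.352 to 0.777). Day 18, with the highest macrophage markers, held 4 counts (0.09 CPM, 95% interval 0.0245 to 0.23). Any part of macrophages in the Pecam1 level was not tested. The spline did not call Pecam1 (adjusted p = 0.0563), and it passed in the spline without day 8, without day 18 and without replicate 2.

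The other endothelial markers ranged from genes with no counts to genes as high as 104 CPM (Cd34 on day 14), and 9 of 21 averaged at least 1 CPM. Of these 21 markers, Cldn5, a claudin of endothelial tight junctions, and Sox17, an arterial transcription factor, had 0 counts in all 9 libraries, which together held 382137873 counts and in each of which a count of 0 allows up to 0.0484 to 0.134 CPM (3 counts). Robo4, Icam2 and Emcn, all made by endothelium, had at most 0.0464, 0.0709 and 0.0806 CPM on any day, and Plvap, a protein of fenestrated endothelium, at most 0.247 CPM. Of the 15 that were tested, 7 rose, 4 fell and 4 did not pass, with a median change of 1.15. Clec14a, an endothelial lectin, went from 0.946 to 16.0 CPM (log2 change 4.76 ± 0.68, SE, adjusted p = 0.000275), Cd34, which stem and connective tissue cells make too, from 6.55 to 95.3 CPM (4.19), and Erg, an ETS factor, from 1.09 to 13.1 CPM (3.48). Sox7 fell from 2.81 to 0.270 CPM (−4.17). The list therefore did not move as 1 group. On days 12 to 18, when Cdh5 was highest, Cldn5 and Sox17 had no count, and Robo4, Icam2 and Emcn at most 0.0806 CPM. On the same days Clec14a was at 15.3 to 17.0 CPM and Erg at 10.9 to 13.1 CPM. Which cells made these transcripts was not tested.

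**Figure D4:**
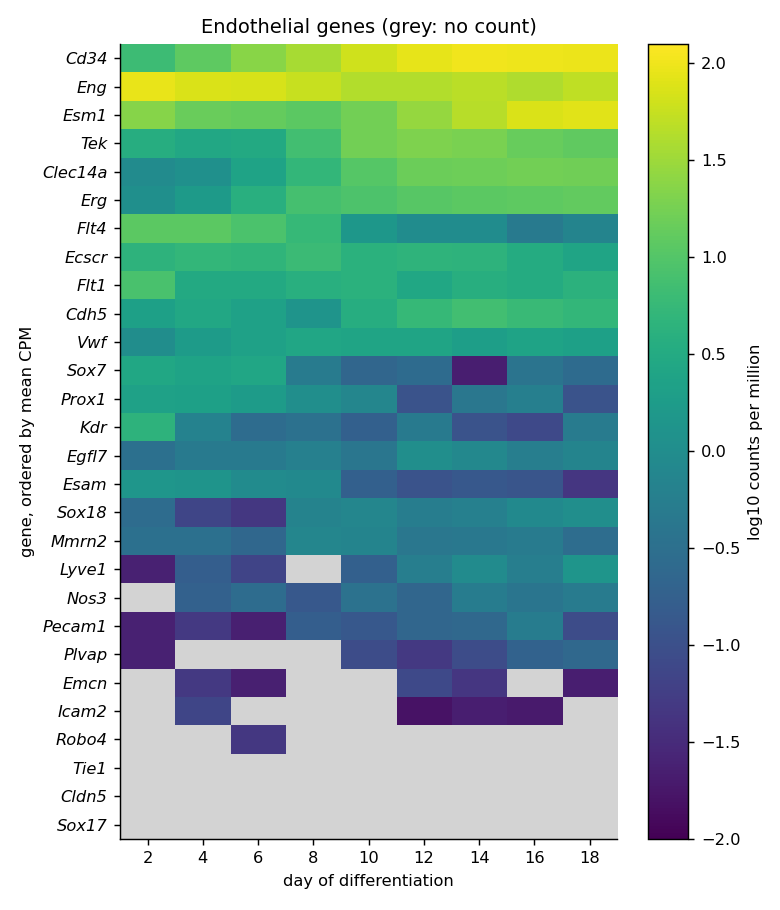
Level of 28 endothelial genes (y axis, ordered by mean CPM) on each day of differentiation (x axis), with colour giving log10 CPM and grey marking no count. Cd34, Eng, Esm1, Tek, Clec14a and Erg fill the bright rows, while Tie1, Cldn5 and Sox17 have no count on any of the 9 days.

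For the order of levels, the 10 genes were compared in normalised TPM, which accounts for transcript length. Averaged over 9 days, Vegfa was highest at 48.0 ± 19.5 TPM (SD over days), followed by Nrp1 at 29.5 ± 4.42, Vegfb at 26.5 ± 8.34 and Angpt1 at 24.4 ± 14.2 TPM. Angpt2 was at 6.01 ± 3.64 and Vegfc at 5.41 ± 0.79 TPM. Cdh5 was at 1.73 ± 0.954, Flt1 at 1.58 ± 1.49, Kdr at 0.215 ± 0.36 and Pecam1 at 0.15 ± 0.117 TPM. Without day 10, Flt1 averaged 1.09 ± 0.366 TPM. The SD here is spread over the course, not error, and of neighbours in the order only Vegfc and Cdh5 had ranges that did not meet (4.18 to 6.41 and 0.513 to 3.13 TPM). The 5 factors and Nrp1 reached at least 1 TPM on 9 of 9 days. Cdh5 did so on 6 days, Flt1 on 5, Kdr on 1 and Pecam1 on 0. The secreted factors and Nrp1 filled the upper 6 places, and the endothelial markers with Kdr and Flt1 the lower 4.

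**Figure D5:**
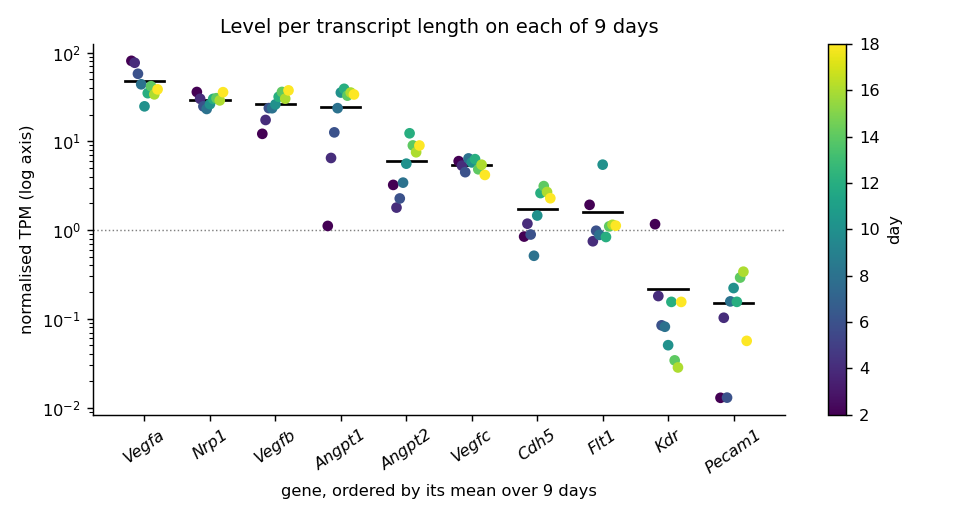
Normalised TPM (y axis, log scale) of each gene (x axis, ordered by its mean) on 9 days, with points coloured by day, black bars at the mean and a dotted line at 1 TPM. The secreted factors and Nrp1 lie above the dotted line on all days, and Pecam1 lies under it on all days.

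Genes whose course over 9 days was most like that of a member were found by Pearson r of log2(CPM + 0.5) among genes of at least 10 CPM, as a description. The points share libraries and most genes follow a trend, so high values are common. For Vegfa, Psme3 (r = 0.9956) and Rsl1d1 (0.9955) were among the 3 closest of 8236 genes, and for Vegfb the 3 closest were Trmt2b (0.991), 0610031J06Rik (0.99) and Sod3 (0.9865). For Angpt1 they were Asah2 (0.997), Bnc2 (0.996) and Msi2 (0.995), and for Angpt2 Dlk1 (0.985), Neo1 (0.977) and Mkrn1 (0.973). For Nrp1 the closest were Fzd7 (0.979), Ifngr1 (0.948) and Stk4 (0.941). For the remaining genes tested, the closest match had a lower r than the closest match of each gene above. Cdh5 came closest to Ezh1 (0.9625), Mpv17 (0.961) and Hipk2 (0.957), Kdr to Phldb1 (0.943), Hspb6 (0.939) and Inpp5a (0.928), Vegfc to Nipbl (0.942), Unc5c (0.935) and Crnkl1 (0.917), and Flt1 to Tax1bp3 (0.941), Ints12 (0.93) and Ezr (0.903).

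The hypoxia-inducible factors and their targets were set beside Vegfa. Of 16 genes, 15 were tested, 7 rose, 4 fell and 4 did not pass, with a median change of 0.53. Ndrg1, a stress-induced differentiation gene, went from 5.58 to 76.7 CPM (log2 change 4.54 ± 0.77, SE, adjusted p = 0.000703), and Epas1, which encodes HIF-2α, from 17.5 to 133 CPM (3.43). Pdk1, a kinase that slows pyruvate oxidation, rose by 2.79 and Vldlr, a lipoprotein receptor, by 2.38. The 4 that fell, named after their values were seen because they are so few, were the glucose transporter Slc2a1 (46.8 to 11.8 CPM), the glycolytic enzymes Pgk1 (246 to 67.4 CPM) and Ldha (918 to 357 CPM) and the oxidoreductase Ero1l (80.9 to 41.5 CPM). Hif1a was at 137 to 211 CPM (0.04, adjusted p = 0.874). The list did not move as 1 group.

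Other secreted factors that act on vessels also moved both ways. Of 12 genes, 11 were tested, 6 rose, 4 fell and 1 did not pass, with a median change of 1.21. Cxcl12, a chemokine that keeps blood stem cells and draws endothelial cells, went from 39.2 to 853 CPM (log2 change 4.66 ± 0.65, SE, adjusted p = 0.000238). Sema3f, a semaphorin that repels vessels, and Apln, the apelin peptide, rose by 3.15 and 2.06. Adm, the vessel-active peptide adrenomedullin, fell from 29.0 to 6.23 CPM (−2.52). Pdgfb, made by endothelium to recruit mural cells, had 0 counts except 9 on day 18.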

How the data were processed

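RNA sequencing profiles of mouse calvarial osteoblast cultures (27 profiles, 9 days, 3 lanes per day) were used. RNA had been amplified (NuGEN Ovation) before library construction. The authors mapped reads to transcripts of NCBIM37 with Bowtie 0.12.9 and estimated gene abundance with RSEM, version 1.2.8 in the submitters' processing notes. The deposited estimated counts (expected counts) are RSEM's per gene, without normalization. The deposited TPM values are scaled to one total in each profile and the deposited FPKM values to aligned fragments, both divided by a length averaged over isoforms.

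Of 37991 identifiers, 37205 had a symbol and position in GENCODE's NCBIM37 annotation. Counts were summed over the lanes of a day, rounded, and fitted over 9 libraries in edgeR 4.0.16 and R 4.3.3 by the quasi-likelihood test, with upper-quartile factors, a filterByExpr minimum of 10 counts and Benjamini-Hochberg adjustment over all genes tested. With 1 library per day, p-values set the trend over days against the scatter of days around the fitted curve, not against spread between cultures. CPM used the total count of a library. TPM for levels was scaled to each profile's 75th percentile over values above 0. Lanes with the same number did not deviate together (mean correlation 0.00566 over 108 pairs). The fits were tested on simulated counts. Tools also used were DESeq2 1.42.0, limma 3.58.1 and Python 3.11.15 with scipy 1.17.1.

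The 10 genes and the companion lists were chosen with earlier results of these data known. Named are all 10 genes and, per list, at most 4 genes with the largest change among those called with a mean of at least 1 CPM, the markers that define a cell type, genes with 0 counts, and the 3 genes most alike, of which 1 is not reported here.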

Additional observations from a re-analysis of the deposited data

How the results depend on the processing

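No day had more than 1 library and the shallowest held 22470147 counts, so the levels of Pecam1 and, after day 4, of Kdr rest on few counts. Calls of genes by the line stayed within 1.5 times the 8510 of the reported fit under each other setting fixed at the start, from 7187 to 8447 with a day or a lane left out, and those by the spline from 7452 to 9418 beside 9350. The 27 profiles as separate samples gave 10754 and 12775, and with the replicate block 10881 and 12857, although the lane numbers pair nothing. In the fit of days 2 to 10 alone, chosen after seeing the data, 4780 genes were called. The limma fits on TPM moved the median change of all genes from 0.05 to 0.12 and 0.15.

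Vegfa, Vegfb, Angpt2 and Cdh5 kept their call under all 21 of those settings, and of 196 alternative changes of members 179 kept direction and side of the threshold. Leaving out a day or a lane gave −5.34 to −0.67 for Kdr, 2.22 to 4.40 for Angpt1, −0.88 to 0.45 for Flt1 and −0.25 to 0.32 for Nrp1. Kdr missed the threshold with days 2 to 6 against days 14 to 18 (−2.88), with limma on log2(TPM + 0.5) (−0.88) and on log2(TPM + 0.1) (−1.74), and was not tested with a minimum count of 50 or with unblocked profiles. The line for Nrp1 turned to 0.10 in both limma fits. Vegfc passed with the 27 profiles (−0.35 without and with the replicate block) and turned to 0.068 over days 2 to 10 alone, where Angpt2 (0.97) and Cdh5 (0.30) did not pass. The replicate block on the 27 profiles gave −1.47 for Vegfa, 1.29 for Vegfb, −0.53 for Flt1, −3.66 for Kdr, −0.02 for Nrp1, 3.34 for Angpt1, 1.84 for Angpt2 and 1.91 for Cdh5. Pecam1 was called by the line when every gene with 1 count was tested (3.63). FPKM as deposited gave lower mean levels than TPM, 31.4 for Vegfa, 16.8 for Vegfb, 3.50 for Vegfc, 0.144 for Kdr, 18.9 for Nrp1, 15.4 for Angpt1, 3.75 for Angpt2 and 1.08 for Cdh5. FPKM and TPM are scaled to different totals. The cause of the other changes was not tested.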

Other observations

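Markers of vascular mural cells, which wrap small vessels, were also measured. Of 7 genes, 3 rose and 3 fell, with a median log2 change of 0.17. Kcnj8 and Abcc9, the subunits of a potassium channel of pericytes, went from 0 to 1.48 CPM and from 0.97 to 24.9 CPM between days 2 and 18. Cspg4, the proteoglycan NG2, fell from 111 to 20.7 CPM and Des, desmin, from 6.01 to 2.63 CPM. Pdgfrb, the PDGF-B receptor of mural and connective tissue cells, was at 162 to 191 CPM (0.17, adjusted p = 0.139).

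Of 5 megakaryocyte and platelet markers, 4 were tested and 1 rose, Pf4, named after its values were seen, from 0.071 to 1.71 CPM. Of the others, also named after their values were seen, Itga2b lay between 0.753 and 1.82 CPM and Gp1bb between 0.806 and 1.13 CPM. Gp1ba lay between 0.0989 and 0.626 CPM (fitted log2 change −1.34, adjusted p = 0.2), and Gp9 had at most 0.0236 CPM.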
